A study of Drosophila melanogaster with 2 samples.

Results

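The mitochondrial ribosomal protein genes of Drosophila melanogaster were taken as the protein-coding genes whose symbol begins with mRpL (large subunit) or mRpS (small subunit) in the Ensembl annotation. This gave 73 genes, 47 of the large and 26 of the small subunit, of 13968 protein-coding and 18277 annotated genes on the chromosome arms. Their start sites were read against the peaks of a chromatin immunoprecipitation and sequencing (ChIP-seq) experiment on CG17612. Chromatin came from whole embryos of 0 to 24 hours of transgenic flies of 1 strain, CG17612-GFP, that express CG17612 fused to enhanced green fluorescent protein, and fusion-bound DNA was pulled down with an antibody to GFP, although the antibody label itself reads CG17612. There were 2 biological replicates of 1 group, so no condition was compared, and the control experiment that the labels name was not analysed here. Whole embryos mix all cell types and stages of that window, and the labels do not state which promoter drives the fusion.

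Mitochondria carry their own ribosomes, which translate the few respiratory chain proteins encoded by mitochondrial DNA. The ribosomal RNAs of these particles come from mitochondrial DNA, whereas all of their proteins are encoded in the nucleus, made in the cytoplasm and imported. Many have a counterpart in the bacterial ribosome, and others are found in mitochondria alone.

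A gene was called bound when the summit of a peak lay within 500 bp of one of its annotated start sites. By this rule 11 of the 73 genes were bound in the conservative list, 7 of the large and 4 of the small subunit. To show what DNA lay under these peaks, the summit base with 50 bases on each side is given for 6 of them, 5 with high scores and mRpL4, a low-scoring one with the lowest A+T content of the 11. They are read 5′ to 3′ on the plus strand of the Release 6 (dm6) reference genome. Capitals mark any of 5 words of 6 bases that were picked from the other peaks of the list, on either strand. The words are TTAAAA, then AAATAT with its near copy AAAATA, then ATTTAA, and last AATATA, and they overlap one another. The windows are chr3R:15229483-15229583 for mRpS10, chr2L:13835397-13835497 for mRpS23, chr3L:13018091-13018191 for mRpL20, chr2L:4850517-4850617 for mRpS2, chr2L:4945451-4945551 for mRpL24 and chr2L:16329186-16329286 for mRpL4.
mRpS10: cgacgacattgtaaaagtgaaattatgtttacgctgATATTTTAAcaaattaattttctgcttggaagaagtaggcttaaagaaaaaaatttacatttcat
mRpS23: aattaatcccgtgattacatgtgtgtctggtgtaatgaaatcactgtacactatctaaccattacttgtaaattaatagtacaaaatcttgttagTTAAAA
mRpL20: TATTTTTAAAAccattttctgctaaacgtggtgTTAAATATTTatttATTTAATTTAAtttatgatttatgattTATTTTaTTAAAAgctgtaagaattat
mRpS2: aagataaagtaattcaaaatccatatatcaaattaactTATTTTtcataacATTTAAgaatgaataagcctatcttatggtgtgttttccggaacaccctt
mRpL24: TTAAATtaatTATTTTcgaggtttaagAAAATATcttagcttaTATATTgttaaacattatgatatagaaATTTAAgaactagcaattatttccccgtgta
mRpL4: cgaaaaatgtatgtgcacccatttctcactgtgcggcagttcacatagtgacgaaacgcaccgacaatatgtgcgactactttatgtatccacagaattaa
The first 5 are 71.3 to 84.2% A and T, and mRpL4 is 57.4% A and T and holds none of the words.

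The bound genes made up 15.1% of the members (95% Wilson interval 8.63 to 25.0%), beside 8.69% of all protein-coding genes (1214 of 13968). The interval covers counting error only, and genes are not replicates of an experiment. The share was 14.9% for the large subunit and 15.4% for the small subunit. In the less strict list of both replicates 12 members were bound (16.4%, background 9.18%). In the list of replicate 1 alone there were 9 (12.3%, background 6.56%), and in that of replicate 2 alone there were also 9 (background 5.87%). In each of these 4 thresholded lists the members' share was above the background. In the conservative list the lower end of its interval, 8.63%, lay just under the background.

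The gene groups nearest in function gave other shares in the same list. Of the 92 genes for proteins of the cytoplasmic ribosome, 33 were bound (35.9%). Their count differed between replicates, with 30 bound in replicate 1 and 13 in replicate 2, whereas the mitochondrial ribosomal protein genes had 9 in each. Of 87 genes for the respiratory chain and ATP synthase, 7 were bound (8.05%), with 5 in replicate 1 and 3 in replicate 2. No test was made between these groups.

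**Figure D1:**
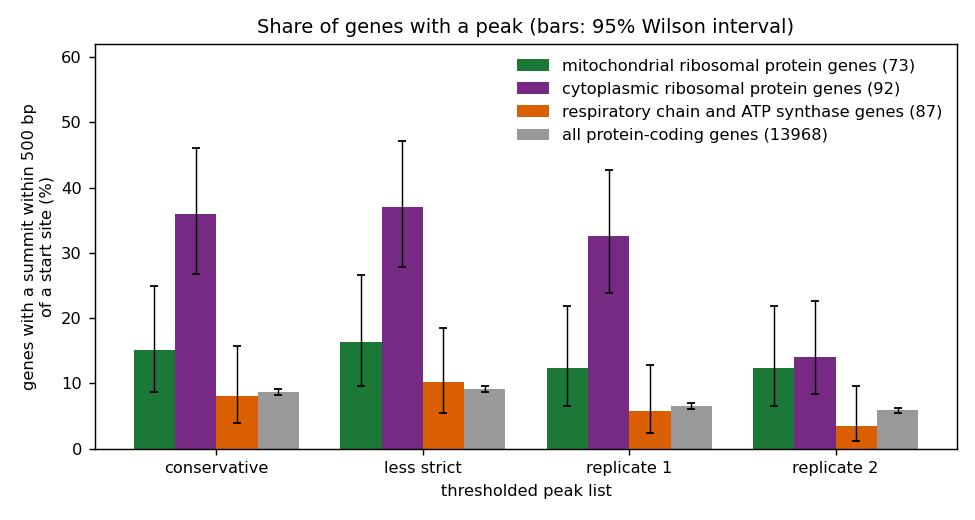
Share of genes (%) with a peak summit within 500 bp of a start site, in each of 4 thresholded peak lists, for 4 sets of genes; bars on the columns are 95% Wilson intervals. The mitochondrial ribosomal protein genes sit at 15.1, 16.4, 12.3 and 12.3%, above all protein-coding genes in each list, and the cytoplasmic set drops from 32.6% in replicate 1 to 14.1% in replicate 2.

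Peaks are scored here by the signal value in the deposited lists, whose scale the authors do not state, and a peak's rank is its place among the 2042 conservative peaks on the arms, whose median score was 98.2 and highest score 1264. Among the members the highest score was at mRpL41, which encodes a large-subunit protein with no bacterial counterpart, at chr2R:15217614-15217887. It scored 1127 in the conservative list, 631 in replicate 1 and 496 in replicate 2, and ranked 4 of all peaks. The summit lay 130 bp upstream of the mRpL41 start site, and no divergent partner gene lay there. A long non-coding RNA gene, lncRNA:CR44463, starts on the same strand 448 bp from the summit.

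At mRpS10, whose product has a counterpart in the bacterial small subunit, the peak at chr3R:15229408-15229665 scored 822, with 405 in replicate 1 and 411 in replicate 2. At mRpS23, whose product has no bacterial counterpart, the peak at chr2L:13835354-13835580 scored 723, with 377 and 348 in replicates 1 and 2. These peaks ranked 6 and 14 of the list.

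At mRpL23, whose bacterial counterpart lies by the exit of the tunnel for the new protein chain, the peak at chr3L:2373504-2373707 scored 576, with 291 and 280 in replicates 1 and 2. At mRpL20 the peak at chr3L:13018069-13018227 scored 327, with 167 and 164. At mRpS2 the peak at chr2L:4850480-4850631 scored 294, with 169 and 130. All 3 products belong to families shared with the bacterial ribosome. At mRpL24, another of these, the peak at chr2L:4945339-4945662 scored 206, with 88.0 in replicate 1 and 117 in replicate 2. These 7 genes were the members with a thresholded peak in both replicates' own lists.

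The other 4 scored much lower, and each failed the threshold in at least 1 replicate. At mRpL32 the peak at chr3R:31252579-31252902 scored 84.5, with 47.1 and 42.9 in replicates 1 and 2, and passed in replicate 1 alone. At mRpL4, whose bacterial counterpart lines part of the exit tunnel, the peak at chr2L:16329074-16329397 scored 78.4, with 44.1 and 32.9, and passed in replicate 2 alone although its score was lower there. At mRpL34 the peak at chr2R:16098533-16098856 scored 68.5, with 34.6 and 46.3, and passed in replicate 2 alone. At mRpS24 the peak at chr3R:24163599-24163922 scored 66.6, with 38.3 and 37.8, and passed in neither. The conservative threshold rests on the irreproducible discovery rate (IDR), a measure of how well a peak's rank repeats, given as its −log10, for which every listed peak had at least 2. These 4 members had 2.63, 2.37, 2.28 and 2.34 in the order named, close to that limit, and the 7 higher ones had 3.91 to 5.

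**Figure D2:**
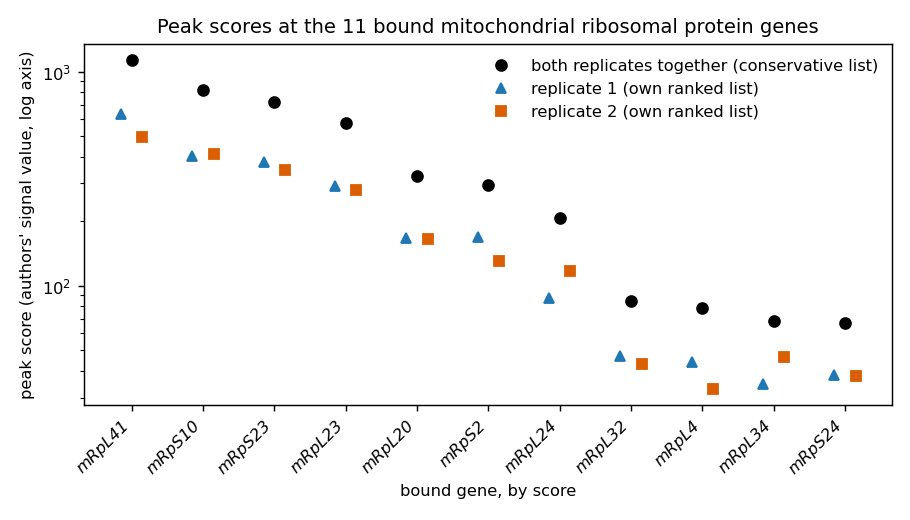
Peak score (authors' signal value, log axis) of the 11 bound mitochondrial ribosomal protein genes in the conservative list (black) and in the ranked list of replicate 1 (triangles) and replicate 2 (squares). The scores fall from 1127 at mRpL41 to 206 at mRpL24, then step down to 84.5 at mRpL32, and the replicates have a score ratio of 0.747 to 1.34.

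Of the bound members, 7 scored 206 or more and 4 scored 84.5 or less. The median score was 294 over the bound members and 114.5 over the bound protein-coding genes. Among the 20 highest peaks of the list were those of 3 members (4.11% of the 73), beside 21 protein-coding genes (0.15% of all). Among the 100 highest were those of 5 members (6.85%), beside 85 protein-coding genes (0.609%). In these counts a peak stood for every start within 500 bp. The summits of mRpS10 and mRpS23, in the highest 20, and of mRpL20, in the highest 100, lay nearer to the start of another gene. The difference was small at mRpS10. With the nearest start alone these peaks would not count for the members, and the shares were not repeated in that way. The 33 bound cytoplasmic ribosomal protein genes had a median of 107 and a highest score of 282. The 7 bound respiratory chain and ATP synthase genes had a median of 84.2 and a highest score of 236.

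The replicates gave much the same scores at the member peaks. These peaks came from a list that keeps those whose rank repeats between replicates, so some likeness was set by that choice. The score in replicate 1 divided by that in replicate 2 ran from 0.747 at mRpL34 to 1.34 at mRpL4, with a median of 1.04, and 8 of the 11 were higher in replicate 1. Over 1204 bound protein-coding genes with a ranked peak in both replicates the median ratio was 1.13 and the range from the 10th to the 90th percentile was 0.781 to 1.77. The summits of the replicates lay 0 to 92 bp apart at the members, with a median of 17 bp. They were at the same base at mRpL4, 1 bp apart at mRpL20, and farthest apart at mRpS24. A thresholded peak in both replicates' own lists was held by 63.6% of the bound members and by 51.3% of the bound protein-coding genes.

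The highest-scoring members had peaks narrower than the common width. In the conservative list 1811 of the 2042 peaks had the same width of 324 bp, and 230 (11.3%) were narrower. Of the member peaks 6 were narrower, at 274 bp (mRpL41), 258 bp (mRpS10), 227 bp (mRpS23), 204 bp (mRpL23), 159 bp (mRpL20) and 152 bp (mRpS2). These are the 6 highest scoring members, and the other 5 peaks had the common width. Among the 6 the width fell with the score, so that a narrower peak was not a higher one. Narrower peaks were held by 54.5% of the bound members and by 14.5% of the bound protein-coding genes. Among the bound protein-coding genes with a score of at least 200 the share was 71.1%, the limit of 200 having been set after the member scores were seen.

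The summits lay upstream of the member's start site at 10 of the 11 genes (90.9%, beside 86.8% of the bound protein-coding genes). The distances upstream were 104 bp at mRpL4, 130 bp at mRpL41, 131 bp at mRpL32, 132 bp at mRpS10, 140 bp at mRpL24 and 148 bp at mRpS2. They were longer at mRpS24 (216 bp), mRpL34 (253 bp), mRpL20 (274 bp) and mRpS23 (375 bp). The exception was mRpL23, which has 3 annotated start sites. Its summit lay in an intron, 88 and 114 bp downstream of 2 of them and 89 bp upstream of the third. The other 10 summits were intergenic. The median distance was 140 bp for the members and 147.5 bp for the bound protein-coding genes.

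At 9 of the 11 genes the peak was shared with a divergent partner, a gene on the other strand whose start site lies within 500 bp upstream and which is read the other way. The partners were Art3 (an arginine methyltransferase) at mRpS10, CenG1A (a GTPase-activating protein for Arf) at mRpS23, CG9004 at mRpL23 and Icmt (isoprenylcysteine carboxyl methyltransferase) at mRpL20. They were Mon1 (part of a complex for endosome maturation) at mRpS2, betaggt-I (a subunit of a geranylgeranyl transferase) at mRpL24 and qless (which makes the side chain of coenzyme Q) at mRpL32. The last were Dg (dystroglycan) at mRpL34 and Apc2 (a relative of the adenomatous polyposis coli tumour suppressor) at mRpS24. Since each summit was within 500 bp of both starts, the partner counted as bound too. The lists hold no value that assigns such a peak to 1 gene of the pair.

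In 7 of the 9 pairs the conservative-list summit was nearer to the partner, though by little at mRpS10 and mRpS24. At mRpS23 it lay 117 bp from the CenG1A start and 375 bp from the mRpS23 start. At mRpL20 it lay 125 bp from the Icmt start and 274 bp from its own, and at mRpL34 it lay 131 bp from Dg and 253 bp from its own. At mRpS2 and mRpL24 the partner starts were at 74 and 78 bp, and their own at 148 and 140 bp. At mRpS10 the summit lay 125 bp from Art3 and 132 bp from its own start. At mRpS24 it lay 205 bp from Apc2 and 216 bp from its own. At mRpL32 both starts were about as far, 131 bp to its own and 133 bp to qless. The replicates' summits lay 17, 92 and 52 bp apart at mRpS10, mRpS24 and mRpL32, so the nearer start is not settled there. At mRpL23, where the closest starts of the pair are 24 bp apart, the summit lay 138 bp from CG9004. It was past its nearest mRpL23 start, though 89 bp upstream of another. By the nearest start of each gene, the summit thus lay between the start sites in 8 of the 9 pairs. The same counts were not made over all bound protein-coding genes with a partner. The labels give DNA fragments of 200 to 800 bp, and how finely a summit can be placed is not stated. When each summit was given to the nearest protein-coding start alone, 4 members held one (mRpL23, mRpL32, mRpL4 and mRpL41). That is 5.48% of the members, beside 6.38% of all protein-coding genes. The members' share was thus above the background when a peak counted for every start within 500 bp. It was not when a peak counted for the nearest start alone. That count of 4 rests in part on the close distances at mRpL32, mRpS10 and mRpS24. It was not repeated with the summits of each replicate.

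Measured to the nearest protein-coding start, whichever gene it belonged to, 10 of the 11 summits lay 74 to 131 bp away and that of mRpS24 lay 205 bp away. The median was 125 bp. Over all 931 conservative peaks at protein-coding starts the median was 129 bp. Within 150 bp, a limit not fixed in advance, lay 90.9% of the member summits, beside 57.6% of those peaks (536 of 931). No test was made.

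**Figure D3:**
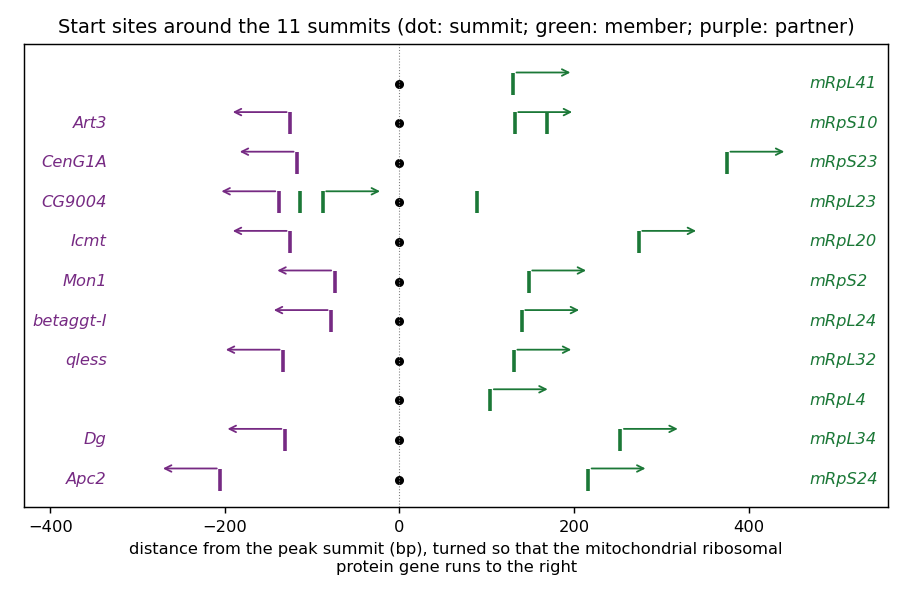
Start sites around the summit (dot, at 0) of each of the 11 member peaks, in bp, turned so that the mitochondrial ribosomal protein gene (green) runs to the right; the divergent partner is in purple and arrows show the direction of reading. The summit lies between the starts in 8 of 9 pairs. The exception, mRpL23, is judged by its start nearest to the summit. The summit is nearer to the partner in 7 pairs, by little at mRpS10 and mRpS24. No partner lies at mRpL41 and mRpL4.

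A divergent partner was common among these genes whether or not they were bound. It was present at 53 of the 73 members (72.6%, interval 61.4 to 81.5%), beside 29.6% of all protein-coding genes. It was present at 81.8% of the bound and 71.0% of the unbound members. Over the bound protein-coding genes it was present at 55.7% (676 of 1214). Genes with a partner were also bound more often across the genome, 16.3% of them beside 5.47% of the 9833 without one. A peak within 500 bp of both starts marks both genes of a pair, so part of that difference is set by the rule. Of the members with a partner, 17.0% were bound (9 of 53, interval 9.2 to 29.2%), close to that 16.3%. Of the 20 members without a partner 2 were bound, mRpL41 and mRpL4 (10%, interval 2.79 to 30.1%). The cytoplasmic ribosomal protein genes had a partner at 41.3%, and the respiratory chain and ATP synthase genes at 44.8%. The gap between the start sites had a median of 264 bp at bound and 260.5 bp at unbound members. Gaps of 200 bp or more were at 8 of 9 bound members with a partner (88.9%) and 23 of 44 unbound ones (52.3%). Over protein-coding genes with a partner they were at 68.9% of the bound and 57.9% of the unbound. That limit was set after the data were seen, and no test was made.

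By chromosome arm, 4 of 12 members on 2L were bound, beside 8.92% of the protein-coding genes of that arm. There were 2 of 12 on 2R (background 8.77%), 2 of 17 on 3L (9.71%) and 3 of 21 on 3R (8.86%). On the X none of 11 was bound, which allows a share of up to 27.3% and takes in the 7.15% of its protein-coding genes. No arm was tested against another.

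Members near the limits of the rule were few. The bound member with the farthest summit was mRpS23, at 375 bp. The nearest outside was mRpL46, a large-subunit gene with a conservative peak (chr3L:1777876-1778199, score 68.3) whose summit lay 599 bp downstream of its start, in its own coding exon. The next distance was 1242 bp, at mRpL27. Beside the 11, 2 members passed the threshold in some other list. At mRpS6 the peak at chr3L:4364288-4364611, 100 bp upstream of its start, scored 73.01 and stood in the less strict list, with 27.4 and 31.1 in the ranked lists of replicates 1 and 2. At mRpL53 a peak 83 bp upstream passed in replicate 1, with a score of 55.9 there, and scored 11.1 in replicate 2. The replicates were close at mRpS6 and wide apart at mRpL53.

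The ranked lists hold every candidate peak, and they reach most genes. A ranked summit of both replicates together lay within 500 bp of 60 members (82.2%), beside 79.3% of all protein-coding genes. Replicate 1 alone gave 61 members (83.6%, background 78.6%), and replicate 2 gave 46 (63.0%, background 72.2%). These shares were near the background or below it. Of the 62 members without a conservative peak, 49 had a ranked one, with scores of 2.41 to 73.01 and a median of 31.2. The median was 30.1 over the 9862 protein-coding genes of the same kind. Of the 49, mRpS6 alone reached the lowest bound score of 66.6. After mRpS6 the highest were mRpS22 (61.4), mRpL53 (61.0), mRpL39 (57.1), mRpS18B (54.5) and mRpS7 (54.3). The −log10 IDR was at least 1 at mRpL39 (1.60), mRpS6 (1.49) and mRpS16 (1.14) and lower at the rest. The 13 others had no ranked summit in the list of both replicates. Of these, 8 had one in a replicate's own ranked list, and 5 (mRpL37, mRpL54, mRpL55, mRpS18C and mRpS5) had none in any.

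**Figure D4:**
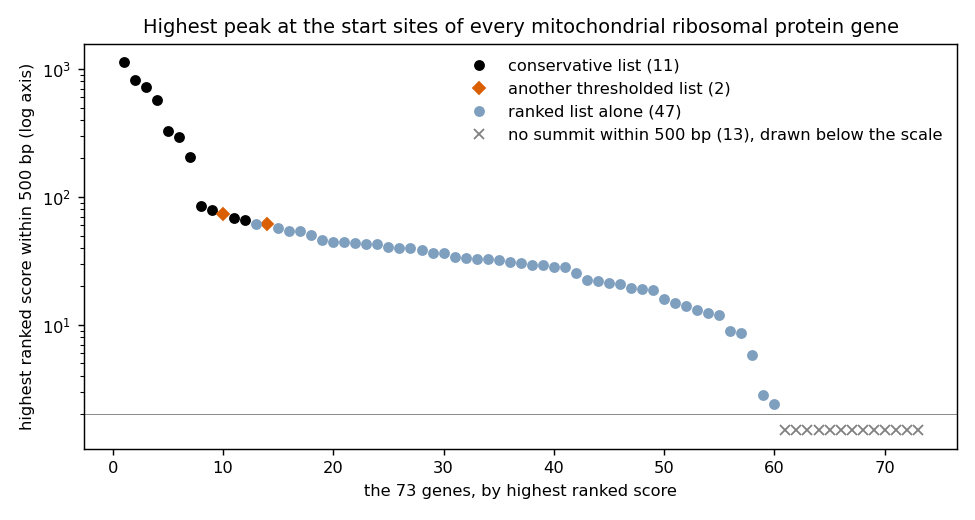
Highest ranked peak score (authors' signal value, log axis) within 500 bp of the start sites of each of the 73 mitochondrial ribosomal protein genes, in order of score; black marks the 11 genes of the conservative list, diamonds the 2 thresholded elsewhere, and crosses the 13 without a ranked summit in the list of both replicates. The 7 highest genes stand above 200, and the 4 lower bound genes run on into the unbound ones, whose highest score is 73.01.

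The other nuclear genes that serve gene expression in mitochondria gave 3 bound of 40 (7.5%), near the background of 8.69%. The list holds translation factors, aminoacyl-tRNA synthetases, and genes of mitochondrial transcription, replication and RNA handling, and it also counts tko and bonsai, which encode small-subunit proteins under other names. The bound ones were PNPase, mtSSB and mEFTu1. At PNPase, an RNA-degrading enzyme, the peak scored 780 (440 and 356 in replicates 1 and 2), and its summit lay 68 bp downstream of the start. At mtSSB, which coats single-stranded mitochondrial DNA, it scored 99.3 (53.3 and 58.8), with the summit 343 bp upstream. At mEFTu1, an elongation factor, it scored 66.6 (36.3 and 30.01) and passed in neither replicate alone. PNPase lay in the range of the 7 higher members, and mEFTu1 at that of the lowest. None of the 15 mitochondrial aminoacyl-tRNA synthetase genes was bound, though so few genes say little about their share. Neither tko nor bonsai was bound. The gene of the factor, CG17612, had no conservative peak at its start and a ranked score of 14.5 in replicate 2 alone.

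The windows of 50 bases on each side of the summit were rich in A and T. The A+T content was 76.2% at mRpL41, 73.3% at mRpS10, 71.3% at mRpS23 and 74.3% at mRpL23. It was 84.2% at mRpL20, 73.3% at mRpS2 and 78.2% at mRpL24. It was lower at the 4 low-scoring genes, 66.3% at each of mRpL32, mRpL34 and mRpS24 and 57.4% at mRpL4. The ranges of the 7 higher and 4 lower genes, a split made after the scores were seen, did not overlap. How far such ranges overlap among other peaks was not measured. The median was 73.3%, beside 51.0% in windows of the same size centred 300 bp to either side. Every member window was above the mean of its flanks, and 9 were above both flanks. The window of mRpL4 was below its right flank (67.3%), and that of mRpS24 below its left flank (72.3%). At the 920 other conservative peaks near protein-coding starts the median was 67.3%. With limits set after the member scores were seen, those with a score of at least 200 had 70.3% (162 other peaks), and those under 100 had 61.4% (407 peaks).

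In a fixed window upstream of the start, bound and unbound members had similar median A+T contents. In the window centred 140 bp upstream of the start, the median distance of the bound summits, the 62 unbound members had a median of 71.8% (44.6 to 85.1%) and the bound ones 73.3%. Over all protein-coding genes the median there was 65.3%. The flanks of that place had 50% at unbound members and 55.4% over all protein-coding genes. The window does not reach the summits of mRpS24, mRpL34, mRpL20 and mRpS23, which lay 216 to 375 bp upstream. Nor does it reach that of mRpL23, which lay 88 bp downstream of its nearest start. Whether A+T content differs between bound and unbound members was not tested.

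**Figure D5:**
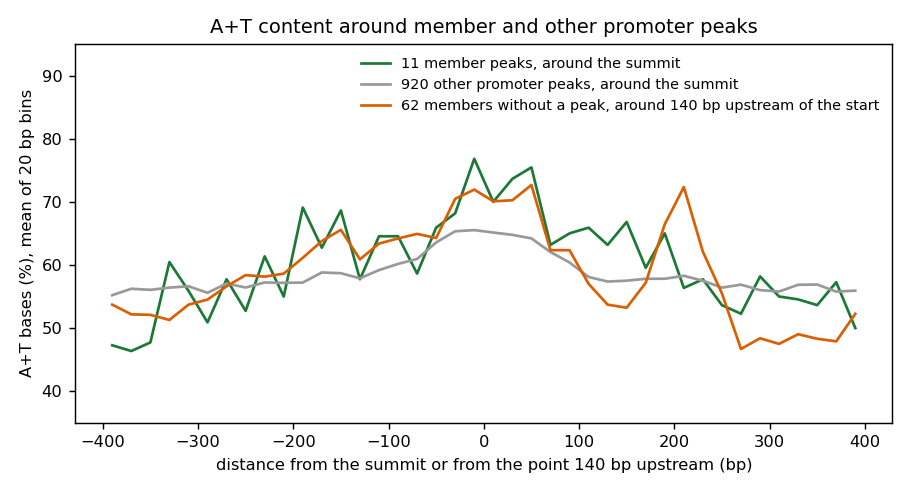
Mean A+T content (%) in bins of 20 bp, against distance (bp) from the summit for the 11 member peaks and for 920 other promoter peaks, and from the point 140 bp upstream of the start for the 62 members without a conservative peak. Near 0 both member lines run above the line of the other promoter peaks.

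Short words were searched on both strands of the same windows, as descriptions of the letters and not as binding sites. Of 8 known promoter and factor words, 7 were in none of the 11 member windows. These were TATCGATA (the DNA replication-related element, 1.13% of the 2031 other peaks), GGTCACAC (0.542%), GAGAG (9.75%), CAGCTG (3.55%), TGCATA (10.9%), GCGCATGC (0.148%) and CCGGAAG (0.591%). In 300 bp promoter windows of all protein-coding genes, which are longer than the summit windows, these words were in 9.36, 7.69, 29.7, 17.6, 15.4, 1.05 and 1.09% in the same order. With 11 windows, 0 allows a share of up to 27.3%, which takes in each share of the other peaks. TATAAA was in the window of mRpL23 and in 19.6% of the other peaks.

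Words of 8 bases were also ranked by how much commoner they were under the other summits than 300 bp away. The first 5 were ATTTAAAA, AAAGTATG, AAGTATGC, ATTTTAAA and AAAATATT, several of which overlap one another. AAAGTATG was in 4.14% of the other peaks, 0.566% of their flanks and no member window. AAGTATGC was in 3.99%, 0.468% and none. ATTTAAAA was in the window of mRpL34, ATTTTAAA in that of mRpL32 and AAAATATT in that of mRpL23. The shorter words marked in the sequences above were commoner. TTAAAA was in 8 of 11 member windows (72.7%) and in 4 of the 22 member flanks, beside 29.9% of the other peaks and 15.3% of their flanks. AAAATA was also in 8 (72.7%, other peaks 33.1%), AAATAT in 6 (54.5%, other peaks 29.8%), ATTTAA in 5 (45.5%, other peaks 25.9%) and AATATA in 2 (18.2%, other peaks 22.3%). The 22 member flanks held AAAATA in 4, AAATAT in 3, ATTTAA in 5 and AATATA in 6, so that AATATA was commoner in the flanks than under the summits. In the 300 bp promoter windows these were in 53.4, 60.0, 53.7, 48.9 and 41.9%. All 5 consist of A and T alone. The window of mRpL23 held all 5, those of mRpL20 and mRpL24 held 4, that of mRpS23 held 1 and that of mRpL4 held none.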

How the data were processed

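The labels put both samples, biological replicates of CG17612-eGFP embryos, in 1 group. The 7 lists used here (4 thresholded, 3 ranked) are on dm6, per the deposited description files, and derive from the alignments of both samples or of 1, with 1 further alignment whose role is not stated. No source used here names the aligner or the peak caller. The score is the authors' signal value, of no stated scale. The −log10 of the IDR and the summit offset are as the authors deposited them. Without read counts the depth is unknown, and a score carries no interval.

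The summits were joined to every start site of the Ensembl release 115 annotation (BDGP 6.54), and the last peak of each arm lay within that arm's length in the Release 6 genome. A replicate's score is that of the highest peak within 500 bp in its own ranked list. The members and lists were chosen with earlier results of these data known. Named were all bound members, those thresholded elsewhere, those next to the distance limit, the highest unbound ones, partners, bound genes of the mitochondrial list and CG17612. Of 39 symbols fixed by name for that list, 25 were in the annotation, and 15 more genes end in RS-m. The words of 6 bases, the A+T content, the gaps and the score limits of 100 and 200 were added after seeing the data. No test was made, because there is 1 group. Python 3.11.15 and numpy 2.4.6 were used, and the assignment was tested on simulated peaks.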

Additional observations from a re-analysis of the deposited data

How the results depend on the processing

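The count of 11 bound members, beside 1214 protein-coding genes, stayed within 1.5 times under 8 of 10 alternatives, ranging up to 12. The upper 50% of the peaks by score gave 7 members and 755 protein-coding genes, and the nearest start site alone gave 4 members. The list of replicate 1 or replicate 2 alone gave 9 members each, and 916 and 820 protein-coding genes. With 250 bp there were 8 members and with 1000 bp 12. Bound members with a divergent partner ranged from 2 (nearest start alone) to 10, beside 9. The median score, 294, was 576 with the higher-scoring peaks and 250 at either other distance. The median distance, 140 bp, ranged from 131.5 to 153 bp. Members with at least 1 searched word were counted without the shorter words marked in the sequences. These members were 3 in the summit window, 1 with the higher-scoring peaks and 8 in whole peaks, which are longer. No paired analysis was possible because both samples are in 1 group. The cause of the other shifts was not tested. Without read counts, depth sets a limit that cannot be given.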
